A study of Mus musculus with 8 samples.

Results

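The nuclear-encoded subunits of respiratory complexes II to V were taken as every gene of the table whose symbol starts with Uqcr, Atp5 or Cox followed by a digit from 4 to 8, together with Cyc1 and the genes Sdha, Sdhb, Sdhc and Sdhd. The rule found 49 of 56576 genes, of which 4 belong to complex II, 9 to complex III, 19 to complex IV and 17 to complex V. Of these, 47 averaged 10 normalized counts or more in either genotype and were tested, and Cox8b and Cox8c were below that level in both. Cox7a2l, which helps to join complexes III and IV into supercomplexes, and the pseudogene Cox7c-ps1 also met the rule, although neither is a standard subunit.

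The data come from RNA pulled down with HA-tagged ribosomes from cortical synaptosomes, which are pinched-off synaptic terminals, of mice at postnatal day 15. Controls were Lhx6-Cre;ErbB4+/+;Rpl22HA/HA and mutants Lhx6-Cre;ErbB4F/F;Rpl22HA/HA, with 4 libraries each, so both genotypes carry Cre and the tagged ribosomal protein, and they differ in the floxed allele of the receptor gene Erbb4. Recombination follows Lhx6 and so covers the interneurons that arise from the medial ganglionic eminence (MGE) and preoptic area as a whole, not a single class of them. The authors deposited normalized counts, which are reads on a gene divided by a size factor for each library, and the libraries held 51010687 to 80226984 such reads. The libraries also hold transcripts of other cells. Mean normalized counts were 103715 for Slc17a7 of excitatory neurons and 241086 for Mbp of oligodendrocytes. For the interneuron genes Sst and Gad1 they were 124096 and 3593. How much of the members' RNA came from the tagged interneurons was not tested. The study sequenced in more than 1 batch, and no label assigns a library to a batch, so batch and other differences between libraries cannot be told apart.

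The labels were first compared with the targeted gene. Erbb4 (chromosome 1 of mm10, 68032186 to 69108060), the neuregulin receptor, had 1640.1, 5377, 4306 and 3034 normalized counts in controls and 1711, 1648, 1233 and 1048 in mutants. All values by library are normalized counts unless another quantity is named, in the order of the labels, control replicates 1, 3, 4 and 5 and then mutant replicates 2, 3, 4 and 5. The library labelled control replicate 1 thus lay below mutant replicates 2 and 3, and the groups overlapped. By the thresholds of the calls, an unadjusted limma p of at most 0.05 with a change of at least 1.5 times, Erbb4 was lower in mutants. The log2 fold change of mutants against controls was -1.25 (SE 0.34, adjusted p = 0.58 from limma), and an exact two-sided permutation test over the libraries gave p = 0.0857, where 4 libraries against 4 allow no p below 0.0286. The log2 fold change was -1.39 (SE 0.26) without control replicates 1 and 3. Because control replicate 1 goes against its label in this gene, every direction that rests on it concerns the library labelled control replicate 1.

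Complexes II to V carry electrons from succinate and ubiquinol to oxygen and use the resulting proton gradient to make ATP. Complex II is built from nuclear genes only, whereas complexes III, IV and V combine nuclear subunits with a few that are made inside the mitochondrion, so their nuclear mRNAs have to be matched by local mitochondrial synthesis. Fast-spiking parvalbumin interneurons are known for a high density of mitochondria and of cytochrome c oxidase, and mRNAs for respiratory subunits are among those found in axons and synaptic terminals.

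Promoters of members are shown with the letters of 3 factors known to bind promoters of respiratory genes. The RefSeq table (GRCm38.p6) held promoters of 36 of the 49 members, each with 250 bases before the start and 50 after it. The motifs were the ETS-family core CCGGAAG, bound by GABPA, the NRF1 core GCATGCGC and the YY1 core AAGATGG, on both strands, and matches to different motifs can overlap. The 250 bases before the start are written 5′ to 3′ on the gene's strand, with matches in capitals. The 5 promoters were chosen after the matches and fold changes were seen, in place of a first set of 6 members in which 1 had a match. Sdhb, Uqcrh, Cox6a1 and Atp5l show members of each complex with matches, and Atp5g1 a called member with none. Members with matches are thus shown more often than they occur, since 12 of the 36 (33.3%) have a match in these 250 bases, against 14.6% of all genes in that table.
Sdhb (chr4:140961021-140961270, plus strand): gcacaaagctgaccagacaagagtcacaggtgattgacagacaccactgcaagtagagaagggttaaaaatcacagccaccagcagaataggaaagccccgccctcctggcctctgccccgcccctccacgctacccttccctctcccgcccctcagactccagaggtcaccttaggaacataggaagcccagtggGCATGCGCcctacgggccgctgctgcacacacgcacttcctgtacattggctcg
Uqcrh (chr4:116075071-116075320, minus strand): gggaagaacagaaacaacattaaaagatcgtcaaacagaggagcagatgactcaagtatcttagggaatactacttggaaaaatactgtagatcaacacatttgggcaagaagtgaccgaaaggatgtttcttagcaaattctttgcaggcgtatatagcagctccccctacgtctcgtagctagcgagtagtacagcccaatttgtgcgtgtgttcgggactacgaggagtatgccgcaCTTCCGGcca
Cox6a1 (chr5:115348959-115349208, minus strand): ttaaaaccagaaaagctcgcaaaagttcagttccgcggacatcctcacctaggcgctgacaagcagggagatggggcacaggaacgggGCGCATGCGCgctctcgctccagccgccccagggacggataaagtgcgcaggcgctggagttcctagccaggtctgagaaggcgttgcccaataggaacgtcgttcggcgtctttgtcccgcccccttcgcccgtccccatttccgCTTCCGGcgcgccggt
Atp5l (chr9:44920743-44920992, minus strand): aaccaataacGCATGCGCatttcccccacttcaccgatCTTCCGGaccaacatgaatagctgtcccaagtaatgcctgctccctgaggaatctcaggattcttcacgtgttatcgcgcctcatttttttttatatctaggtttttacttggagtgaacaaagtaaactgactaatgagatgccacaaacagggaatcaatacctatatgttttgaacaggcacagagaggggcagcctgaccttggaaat
Atp5g1 (chr11:96075632-96075881, minus strand): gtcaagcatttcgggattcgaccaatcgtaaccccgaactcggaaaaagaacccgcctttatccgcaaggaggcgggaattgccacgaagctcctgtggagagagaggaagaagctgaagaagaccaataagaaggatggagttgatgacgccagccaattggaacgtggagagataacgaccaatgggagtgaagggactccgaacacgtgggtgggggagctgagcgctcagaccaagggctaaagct
The ETS letters of Sdhb lie after the start and are not in the stretch shown. Over the whole windows, 13 of 36 members (36.1%) held the ETS letters, 7 (19.4%) the NRF1 letters and 4 (11.1%) the YY1 letters. The shares among all 27025 genes in the table were 9.93%, 3.05% and 7.28%. The median log2 fold change was -0.80 in the 18 tested members with any of the 3 motifs and -0.77 in the 17 with none, and without control replicates 1 and 3 the medians were 0.06 and -0.07. A match describes the sequence and does not show binding.

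Across the members, levels in the libraries labelled control replicates 1 and 3 stood apart from the other 6 libraries. The median difference from each gene's mean over the 8 libraries was, on the log2 scale, 1.19, 1.14, -0.24 and -0.38 in controls and -0.04, -0.05, -0.60 and -0.67 in mutants. Over all 31171 genes tested the same medians lay between -0.08 and 0.13. In 43 of the 47 members (91.5%) both of these controls were above both other controls, against 6890 of all genes tested (22.1%), and in 42 members both were above every mutant, against 5203 of all genes tested (16.7%). The mutants also differed among themselves, since replicates 2 and 3 were both above replicates 4 and 5 in 40 members (85.1%), against 25.7% of all genes tested. The controls labelled 4 and 5 lay between these pairs of mutants at the median, below mutant replicates 2 and 3 and above mutant replicates 4 and 5.

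**Figure D1:**
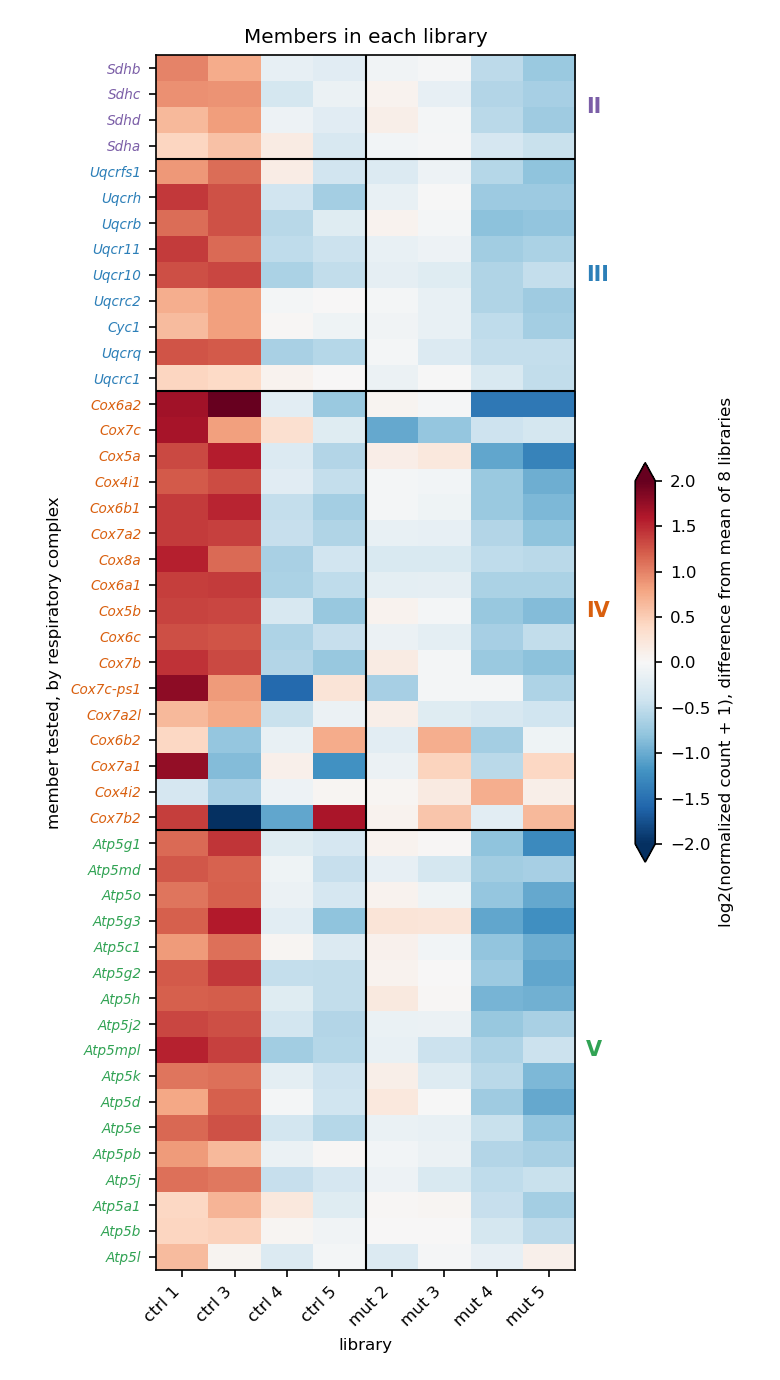
Each row is a member tested, grouped by complex, and each column a library; colour gives log2(normalized count + 1) minus the gene's mean over the 8 libraries. The libraries labelled control replicates 1 and 3 are high in most rows, with member medians of 1.19 and 1.14, and mutant replicates 4 and 5 are low, at -0.60 and -0.67.

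With all 8 libraries, 9 of the 47 members (19.1%) were called lower in mutants and 0 higher, by the same thresholds as for Erbb4. Of all genes tested 3.17% were called lower and 3.98% higher by this rule. The called members were Uqcrfs1, Uqcrc2 and Cyc1 of complex III, Cox7c of complex IV, and Atp5g1, Atp5md, Atp5o, Atp5c1 and Atp5pb of complex V. The members' median log2 fold change was -0.77, beside 0.06 over all genes tested, and 44 of the 47 values were below 0, against 46.6% of all genes. No member reached an adjusted p below 0.05 in limma, edgeR or DESeq2, in which 9, 25 and 35 members had an unadjusted p below 0.05, beside 8.33%, 8.53% and 11.1% of all genes in either direction. In limma 14 genes (0.0449% of those tested) were lower at an adjusted p below 0.05. By the call thresholds 25 members were lower in edgeR, 33 in DESeq2, 3 in limma without trend and 19 with the replicate block, beside 3.87%, 5.05%, 2.31% and 5.51% of all genes. Every mutant was below every control in 3 members (6.38%), namely Uqcrc1, Uqcrc2 and Cox7c, against 2.17% of all genes tested.

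In an alternative chosen after the data were seen, without the libraries labelled control replicates 1 and 3, 0 of 47 members were called lower and 0 higher, beside 1.51% and 2.53% of the 31285 genes then tested. The members' median was then -0.03, equal to the median of all genes, with values from -0.68 to 0.61. Of the 47 values 25 were below 0, against 52.4% of all genes then tested. These libraries were left out because they were high in the members, while mutant replicates 2 and 3, the higher mutants, were kept. A move of the members towards 0 thus follows from the choice, and values without these controls say nothing for or against a difference between genotypes, here and below. Single libraries moved the count as well. The number of members called lower was 3 without control replicate 1 and 2 without control replicate 3, beside 2.06% and 1.77% of all genes then tested. It was 33 and 37 without control replicates 4 and 5, beside 4.93% and 6.35%. Leaving out mutant replicates 2, 3, 4 and 5 in turn gave 13, 10, 4 and 1, beside 3.81%, 3.78%, 1.84% and 1.65%. The libraries labelled control replicates 1 and 3 had the fewest genes above 0, 28247 in control replicate 1 and 31141 in control replicate 3, against 31510 to 34364 in the other 6 libraries. What sets these libraries apart, and the part of the number of genes detected in the members' levels, was not tested.

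**Figure D2:**
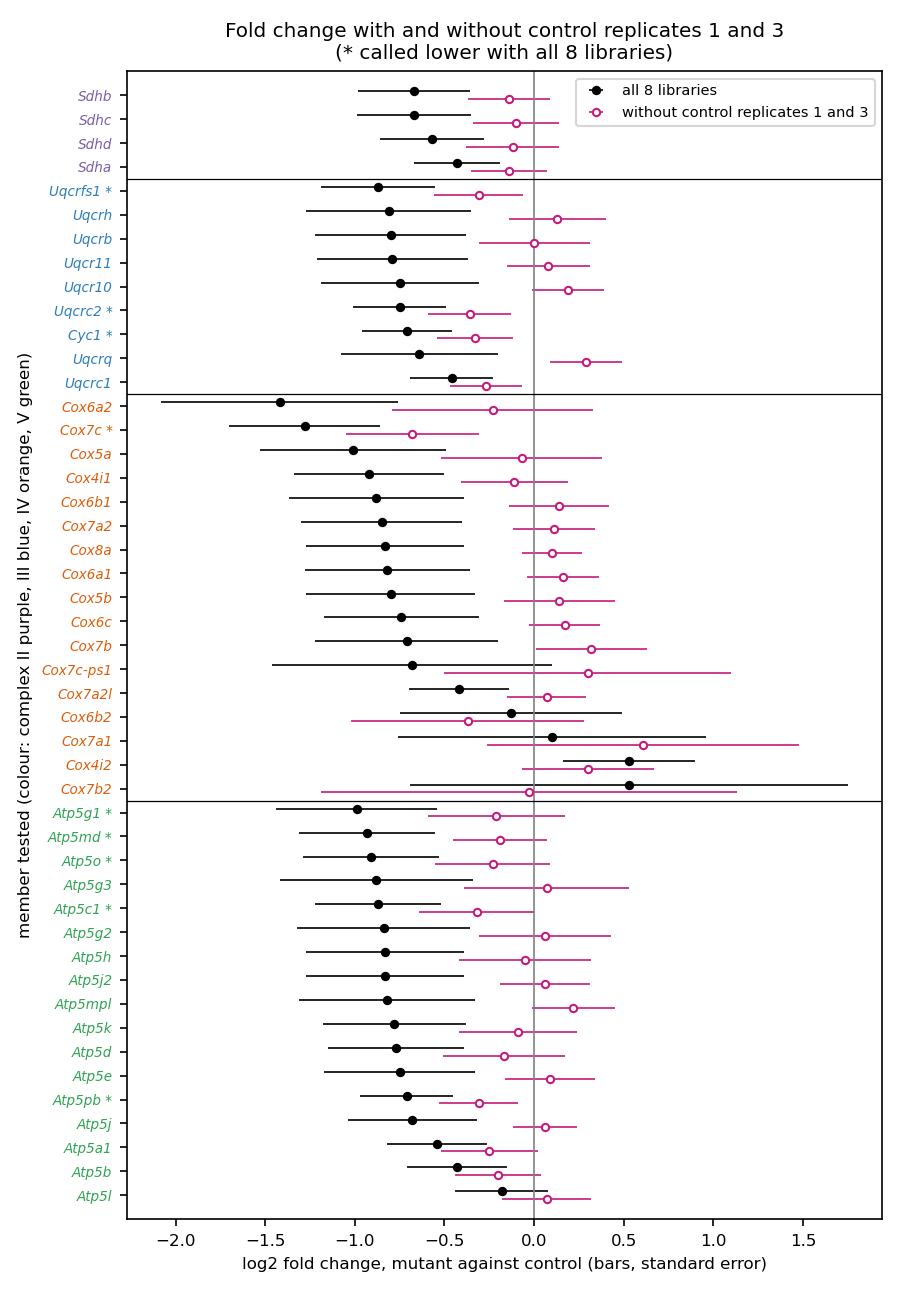
Log2 fold changes of mutants against controls with standard errors for the 47 members tested, with all 8 libraries (filled) and without control replicates 1 and 3 (open). The median moves from -0.77 to -0.03, and Cox7c has the lowest open value, -0.68.

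Complex II oxidizes succinate in the citric acid cycle and passes the electrons to ubiquinone. Its median log2 fold change was -0.62, and 0 of its 4 genes were called by limma with trend. Sdhb and Sdhc met the thresholds in edgeR (-0.71 and -0.72) and in DESeq2 (-0.72 and -0.73). Sdhc and Sdhd did so with the replicate block (-0.62 and -0.59). Sdha, the flavoprotein that binds succinate, had 36113, 40421, 29946 and 21555 in controls and 25710.1, 26423, 21309 and 19665 in mutants. Control replicate 5 was lower than mutant replicates 2 and 3, so the groups overlapped, and the log2 fold change was -0.43 (SE 0.24), and -0.28 with quantile normalization. Sdhb, the iron-sulfur subunit, had 14117, 11861, 6309 and 6019 in controls and 6739, 6996, 4949 and 4247 in mutants. Here control replicates 4 and 5 were both below mutant replicates 2 and 3, and the log2 fold change was -0.67 (SE 0.31). The membrane anchors Sdhc and Sdhd had log2 fold changes of -0.67 (SE 0.32) and -0.57 (SE 0.29). For Sdhc the values were 7977, 7960.2, 3324 and 3944 in controls and 4465, 3796, 2839 and 2683 in mutants, with control replicates 1 and 3 alone above all mutants. For Sdhd they were 8831, 10049, 5258 and 4854 in controls and 6167, 5528, 3913 and 3471 in mutants, with the same libraries on top. The adjusted p of the 4 genes was 0.58 to 0.583 (limma), and without control replicates 1 and 3 the log2 fold changes were between -0.14 and -0.10. Per kilobase of transcript, the mean level over the 8 libraries was highest for Sdha (9532), followed by Sdhb (6703), Sdhd (4881) and Sdhc (1458).

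Complex III passes electrons from ubiquinol to cytochrome c. All 9 of its nuclear genes had log2 fold changes below 0, with a median of -0.75, and 3 were called lower. Over all genes tested 46.6% were below 0 and 3.17% were called lower. The core proteins Uqcrc1 and Uqcrc2 were separated by genotype. Uqcrc1 (chromosome 9, 108936648 to 108949644), the most abundant member of the complex with 33668 normalized counts per kilobase, had 73036, 72216, 57336 and 55094 in controls and 50322, 54119, 44205 and 38892 in mutants. The lowest control was thus just above the highest mutant, the log2 fold change was -0.46 (SE 0.23), or -0.19 with quantile normalization, and the exact two-sided permutation p = 0.0286 is the smallest the design allows. Uqcrc2 (chromosome 7, 120635189 to 120659523) had 20197, 21585, 12001 and 12295 in controls and 11914, 11096, 8089.6 and 7463 in mutants. Again the groups did not overlap, but control replicates 4 and 5 were close to mutant replicates 2 and 3. Its log2 fold change was -0.75 (SE 0.26), with an adjusted p = 0.58 (limma) and an exact permutation p = 0.0286. Without control replicates 1 and 3 the log2 fold changes of Uqcrc1 and Uqcrc2 were -0.27 and -0.36, and neither was called.

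The redox subunits of complex III gave the other called genes. Uqcrfs1 (chromosome 13, 30540312 to 30545327), the Rieske iron-sulfur protein, had 12380.2, 14716, 7536 and 5223 in controls and 5641, 6368, 4602 and 3915 in mutants. Control replicate 5 was below mutant replicates 2 and 3, so the groups overlapped. The log2 fold change was -0.87 (SE 0.32), the lowest in the complex, with an adjusted p = 0.58 (limma) and an exact permutation p = 0.0857. Cyc1 (chromosome 15, 76343521 to 76346257), cytochrome c1, had 20089.7, 22865, 13142 and 12206 in controls and 12299, 11631, 9084 and 8014 in mutants. Control replicate 5 lay between mutant replicates 2 and 3, and the log2 fold change was -0.71 (SE 0.25), with an adjusted p = 0.58 (limma) and an exact permutation p = 0.0571. For Uqcrfs1 and Cyc1 the log2 fold changes without control replicates 1 and 3 were -0.31 and -0.33. The 5 small subunits Uqcrb, Uqcrh, Uqcrq, Uqcr10 and Uqcr11 were not called, with log2 fold changes from -0.81 to -0.64. Uqcrh, taken as an example, had 5487, 4972, 1588 and 1285 in controls and 1861, 2061, 1241 and 1243 in mutants. Control replicates 1 and 3 were far above the rest, and control replicates 4 and 5 were below mutant replicates 2 and 3 and above mutant replicates 4 and 5. Without control replicates 1 and 3 the log2 fold changes of the 5 small subunits were between 0.00 and 0.29.

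**Figure D3:**
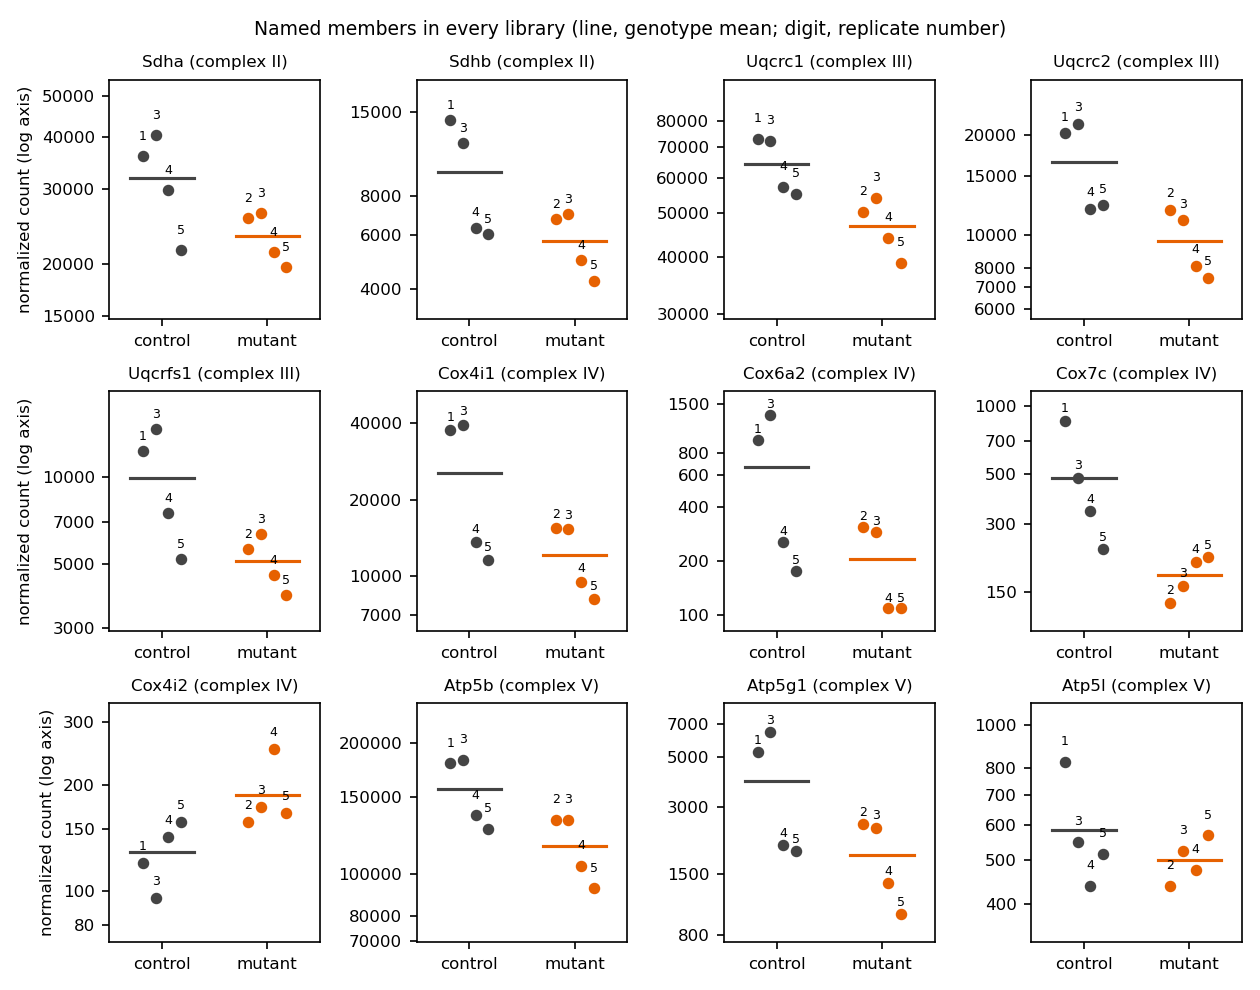
Normalized counts of 12 named members in every library on a log axis, with the genotype mean as a line and the replicate number at each point. Uqcrc1, Uqcrc2 and Cox7c have every control above every mutant, and in the other panels the genotypes overlap or, in Cox4i2, meet at 157 after rounding.

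Complex IV, cytochrome c oxidase, reduces oxygen, and its nuclear subunits surround a catalytic core made in the mitochondrion. Of 17 genes tested 1 was called lower by limma with trend, 14 had log2 fold changes below 0, and the median was -0.80. Over all genes tested the shares were 3.17% called lower and 46.6% below 0. Cox4i1, Cox6a1, Cox6a2, Cox6b1, Cox7a2 and Cox8a also met the call thresholds in edgeR and in DESeq2. Their edgeR log2 fold changes ran from -1.67 (Cox6a2) to -1.04 (Cox4i1). Of all genes, 3.87% were called lower in edgeR and 5.05% in DESeq2. Cox4i1, the main isoform of the largest nuclear subunit and the member of the complex with the highest mean, had 37495, 39498, 13585 and 11523 in controls and 15481, 15338, 9500.4 and 8090.2 in mutants. Only control replicates 1 and 3 stood above all mutants, and control replicates 4 and 5 were below mutant replicates 2 and 3. The log2 fold change was -0.92 (SE 0.42), and -0.11 without control replicates 1 and 3. Per kilobase, Cox4i1 (24593) was close to Cox6a1 (23116) and Cox8a (22853).

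Cox7c (chromosome 13, 86044798 to 86046795), a small peripheral subunit, was the gene called by limma with trend, with 859, 481, 341 and 231 in controls and 134, 159.7, 204 and 213 in mutants. Every control was above every mutant, with control replicate 5 and mutant replicate 5 the closest across genotypes. Unlike most members, Cox7c was lower in mutant replicates 2 and 3 than in mutant replicates 4 and 5. The log2 fold change was -1.28 (SE 0.42), with an adjusted p = 0.58 (limma) and an exact permutation p = 0.0286, and it was -0.68 without control replicates 1 and 3 and -0.81 with library weights and with the replicate block, in which it was not called. Its level is uncertain, because 4 annotated pseudogenes match its coding sequence at 90% identity or more over at least 50% of its length, and reads from them cannot be told apart with confidence. The pseudogene Cox7c-ps1 itself had 140.4, 72.9, 13 and 48.2 in controls and 24.8, 38.8, 39 and 25.8 in mutants. Its groups overlapped.

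Several subunits of complex IV have isoforms used in different tissues. Cox6a2, the heart and muscle form that is also known from parvalbumin interneurons, had 949, 1301, 256 and 176 in controls and 309, 291, 109 and 109 in mutants. Control replicates 1 and 3 were far above every other library, and control replicates 4 and 5 were below mutant replicates 2 and 3. Its log2 fold change of -1.42 (SE 0.66) was the lowest of all members and was not called by limma with trend, with an adjusted p = 0.58 (limma) and an exact permutation p = 0.171. Cox6a2 met the thresholds with a pseudocount of 10 (-1.38), library weights (-1.25), edgeR (-1.67), DESeq2 (-1.68) and the replicate block (-1.36). Its log2 fold change was -0.23 without control replicates 1 and 3. The main form Cox6a1 had 28663, 28877, 7023 and 7688 in controls and 9580.1, 9678, 7065 and 7019.5 in mutants. It was high in the same pair of controls, with a log2 fold change of -0.82 (SE 0.46). Per kilobase the means were 643 for Cox6a2 and 23116 for Cox6a1. For each 100 normalized counts of Cox6a1, with no correction for length, Cox6a2 had 3.31, 4.5, 3.65 and 2.28 in controls and 3.22, 3, 1.54 and 1.55 in mutants. The ratio was lowest in mutant replicates 4 and 5, and control replicate 5 was below mutant replicates 2 and 3.

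Cox4i2, the form known from lung and from oxygen-sensing cells, went the other way, with 120.0, 95.5, 142 and 157 in controls and 157, 173, 252 and 166 in mutants. Every mutant was above every control, as in 2.76% of all genes tested, but by under 1 normalized count between control replicate 5 and mutant replicate 2. The log2 fold change of 0.53 (SE 0.37) was not called, with an adjusted p = 0.633 (limma) and an exact permutation p = 0.0286, and it was 0.30 without control replicates 1 and 3. For each 100 normalized counts of Cox4i1 there were 0.32, 0.242, 1.05 and 1.36 in controls and 1.02, 1.13, 2.65 and 2.05 in mutants of Cox4i2, lowest in control replicates 1 and 3. Cox7a1, the muscle form, had 75, 11.3, 23 and 8.66 in controls and 19.7, 29.5, 14.4 and 28.8 in mutants. Cox6b2, the testis form, had 66.8, 28.7, 45 and 84.1 in controls and 42.7, 83.1, 30.8 and 46.6 in mutants. Neither gene separated the genotypes, with log2 fold changes of 0.10 (SE 0.86) for Cox7a1 and -0.13 (SE 0.62) for Cox6b2. The control mean of Cox7a1 (29.5) was above its mutant mean (23.1), so its sign goes against the means, and its log2 fold change was -0.06 with quantile normalization, -0.31 with edgeR, -0.33 with DESeq2, 0.28 with library weights, 0.76 with the replicate block and 0.61 without control replicates 1 and 3. Cox6b2 was at -0.25 with quantile normalization and -0.37 with library weights. Among the main forms, Cox7a2 had 9088, 8846, 2501 and 2265 in controls and 3091, 3078, 2286 and 1976 in mutants, with a log2 fold change of -0.85 (SE 0.45). Cox6b1 had 13148, 14193, 3577 and 3088 in controls and 4819.5, 4659, 2972 and 2669 in mutants, with a log2 fold change of -0.88 (SE 0.49). In both genes control replicates 1 and 3 were above all mutants, and control replicates 4 and 5 were below mutant replicates 2 and 3.

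Cox8a, the main form of the smallest subunit, had 31000.2, 23075, 6726 and 8071 in controls and 8546, 8541, 7369 and 7226 in mutants. Control replicates 1 and 3 were above all mutants, control replicate 4 was below them and control replicate 5 lay among them, and the log2 fold change was -0.83 (SE 0.44). With library weights Cox6a1, Cox7a2, Cox6b1 and Cox8a were at -0.40, -0.48, -0.55 and -0.35. Cox8b was listed at 0 in 6 libraries, with 10.3 in control replicate 3 and 2.05 in mutant replicate 4, and Cox8c was listed at 0 in all libraries but control replicate 1 (10.9). The remaining complex IV genes tested, Cox5a, Cox5b, Cox6c, Cox7a2l, Cox7b and Cox7b2, were not called. Cox5a, Cox5b, Cox6c, Cox7a2l and Cox7b had log2 fold changes from -1.01 to -0.42, and Cox7b2 had 0.53 (SE 1.22). The values of Cox7b2 were 20.4, 0, 3 and 24.7 in controls and 7.69, 11.1, 6.15 and 11.9 in mutants. Its control mean of 12 was above its mutant mean of 9.21, so the sign on the log scale goes against the means, and the log2 fold change was -0.03 without control replicates 1 and 3. Complex IV had a median of 0.11 and 0 called genes without control replicates 1 and 3.

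Complex V, ATP synthase, joins a catalytic head to a membrane rotor. All 17 of its genes had log2 fold changes below 0, with a median of -0.82, and 5 were called lower. Over all genes tested 46.6% were below 0 and 3.17% were called lower. Atp5b, the catalytic beta subunit and the member with the highest level of all (71170.3 normalized counts per kilobase), had 179714, 183211, 136679 and 127063 in controls and 133409, 133446, 104569 and 92808 in mutants. Control replicate 5 was below mutant replicates 2 and 3, the log2 fold change was -0.43 (SE 0.28), and it was not called; with quantile normalization it was -0.06. Its partner Atp5a1, the alpha subunit, had a log2 fold change of -0.54 (SE 0.28). Atp5c1 (chromosome 2, 10056026 to 10080512), the gamma subunit that turns inside the head, had 22509.5, 26877, 12865 and 10362 in controls and 13179.5, 12051, 7217 and 6329.9 in mutants. Control replicates 4 and 5 overlapped with mutant replicates 2 and 3, and the log2 fold change was -0.87 (SE 0.35), with an adjusted p = 0.58 (limma) and an exact permutation p = 0.143. Atp5c1 was at -0.32 without control replicates 1 and 3, and Atp5b and Atp5a1 were at -0.20 and -0.25.

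The peripheral stalk, which keeps the head from turning, gave Atp5pb and Atp5o among the called members. Atp5pb (chromosome 3, 105942697 to 105960248), subunit b, had 15802, 13771, 8106 and 8938 in controls and 8423, 8104, 5815 and 5578 in mutants. Control replicate 4 was below mutant replicate 2 and level with mutant replicate 3, and the log2 fold change was -0.71 (SE 0.26), with an exact permutation p = 0.0571. Atp5o (chromosome 16, 91925223 to 91931630), the oligomycin sensitivity subunit, had 11232, 12336, 4973 and 4249.6 in controls and 5623, 5061, 3152 and 2629 in mutants. Control replicates 4 and 5 were below mutant replicates 2 and 3, and the log2 fold change was -0.91 (SE 0.38), with an exact permutation p = 0.171. Atp5md (chromosome 19, 47083468 to 47090647), a small membrane subunit that links ATP synthase dimers, had 2168, 2071, 866 and 663 in controls and 821, 715, 567 and 580.5 in mutants. Control replicate 5 was below mutant replicates 2 and 3 and the other controls were above all mutants, and the log2 fold change was -0.93 (SE 0.38), with an exact permutation p = 0.114. The adjusted p of these 3 genes was 0.58 (limma), and without control replicates 1 and 3 the log2 fold changes of Atp5pb, Atp5o and Atp5md were -0.31, -0.23 and -0.19.

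The c subunits form the rotor ring and are made from 3 genes with the same mature protein. Atp5g1 (chromosome 11, 96072793 to 96075694) had 5236, 6432, 2024 and 1903 in controls and 2512, 2419.6, 1369.8 and 993 in mutants. Control replicates 4 and 5 were below mutant replicates 2 and 3, and the log2 fold change of -0.99 (SE 0.45), the lowest in complex V, met the call thresholds, with an adjusted p = 0.58 (limma) and an exact permutation p = 0.171. The call was lost with a pseudocount of 0.1, with no filter on low values and with limma without trend (all -0.99), and with TMM scaling (-0.97). It was also lost without control replicate 1 or 3 or mutant replicate 4 or 5, each left out alone. The log2 fold change was -0.21 without control replicates 1 and 3. Atp5g3 had 11255, 14759, 4238 and 2805 in controls and 5872, 5836, 2402 and 2105 in mutants. Atp5g2 had 1556, 1768, 476 and 472 in controls and 699, 667, 399 and 322 in mutants. Both were high in control replicates 1 and 3 and overlapped otherwise, with log2 fold changes of -0.88 (SE 0.54) and -0.84 (SE 0.48), and neither was called. Atp5g1 made up 31% ± 3.95 (SD, n = 4) of the normalized counts of the 3 genes in controls. In mutants it made up 29.2% ± 2.58 (SD, n = 4), so the shares differed by less than their spread.

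At the other end of complex V was Atp5l, subunit g, with 828, 550.2, 438 and 517 in controls and 439, 524, 476 and 568 in mutants. Control replicate 1 alone was above all mutants, and the log2 fold change was -0.18 (SE 0.26). Its promoter holds both the ETS and the NRF1 letters. Atp5l also has the most copies, with 13 pseudogenes and 1 coding gene that match its coding sequence at the same limits, so its level is uncertain. The 8 other complex V genes, Atp5d, Atp5e, Atp5h, Atp5j, Atp5j2, Atp5k, Atp5mpl and Atp5a1, had log2 fold changes from -0.83 to -0.54, and 0 were called. The complex had a median of -0.09, a range from -0.32 to 0.22 and 0 called genes without control replicates 1 and 3.

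As a share of each library, the members took up 1.03%, 0.938%, 0.653% and 0.615% in controls and 0.683%, 0.666%, 0.52% and 0.491% in mutants. The library labelled control replicate 1 was highest and mutant replicate 5 lowest. Control replicates 1 and 3 were above every mutant. Control replicates 4 and 5 were below mutant replicates 2 and 3 and above mutant replicates 4 and 5. The share of complex IV was 0.223%, 0.191%, 0.0695% and 0.0709% in controls and 0.0927%, 0.0893%, 0.0644% and 0.0635% in mutants. Control replicates 1 and 3 were far above the other 6 libraries. Here too control replicates 4 and 5 lay below mutant replicates 2 and 3 and above mutant replicates 4 and 5. The share of complex V was 0.498%, 0.471%, 0.369% and 0.34% in controls and 0.381%, 0.368%, 0.284% and 0.265% in mutants. The order was nearly that of all members. Control replicates 4 and 5 overlapped with mutant replicates 2 and 3 and were above mutant replicates 4 and 5.

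Within genotypes the members varied as a group. After each gene's genotype means were subtracted, the correlation across the 8 libraries between a member and the median of the other members had a median of 0.96 over the 47 members, and 40 of them (85.1%) were above 0.8. Of the 31124 other genes tested, 9.27% were above 0.8 with the members' median, and their median correlation was -0.13. The median correlation over pairs of genes was 0.93 within complex II, 0.94 within complex III, 0.67 within complex IV and 0.94 within complex V, and 0.94 between complexes III and V. Of the 7 members not above 0.8, 6 belong to complex IV. Cox4i2 (-0.71), Cox7b2 (-0.29) and Cox6b2 (-0.17) ran against the other members and Cox7a1 (0.44), Cox7c (0.64) and Cox7c-ps1 (0.70) followed them less, as did Atp5l of complex V (0.58). The correlations describe 8 libraries, in which all genes share a library's depth and preparation, and include the libraries labelled control replicates 1 and 3.

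Short transcripts were high in the same control libraries throughout the table. Length was that of the longest principal GENCODE M21 transcript, found for all 47 members and for 16597 of the 31171 genes tested. In other genes under 700 bases, the median difference from the mean of the 8 libraries was 0.73 in control replicate 1 and 0.62 in control replicate 3, and between -0.31 and -0.10 in the other 6 libraries. In other genes of 2500 to under 4000 bases it was 0.02 in both. In the 3 members of that length it was 0.91 and 0.90, with a median log2 fold change of -0.67 against 0.01 in the other genes. Members under 700 bases also stood higher than other genes, at 1.39 and 1.24, and those of 1500 to under 2500 bases at 0.64 and 0.68 against 0.35 and 0.18 in other genes. At 700 to under 1000 bases members stood at 1.23 and 1.29 against 0.83 and 0.61 in other genes. At 1000 to under 1500 bases they stood at 0.85 and 1.11 against 0.63 and 0.46. The median log2 fold change was -0.80 in the 20 members and -0.34 in the 458 other genes under 700 bases, and -0.64 in the 7 members and -0.18 in the 3925 other genes of 1500 to under 2500 bases. In the bins of 700 to under 1000 and 1000 to under 1500 bases it was -0.83 and -0.71 in members. In other genes of these lengths it was -0.46 and -0.38. Across genes, which are not independent replicates, the rank correlation of length with log2 fold change was 0.33 over 16550 other genes and 0.08 over the 47 members, and -0.49 over the members without control replicates 1 and 3. Within the members it was -0.55 with the level in control replicate 1 and -0.16 with that in control replicate 3. Atp5g1 was the single member of 4000 bases or more, at 1.13 and 1.43 in these controls against -0.46 and -0.13 in other genes of that length. Its length is uncertain, since the longest principal transcript (4715 bases) runs past the gene's span in the table (2902 bases), and its level per kilobase is uncertain with it. For Cox7c-ps1 the 2 lengths were 372 and 346 bases. Over the other 45 members, a choice made after seeing the data, the rank correlation with log2 fold change was 0.16, and -0.45 without control replicates 1 and 3. The part of length in the members' difference was not tested.

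**Figure D4:**
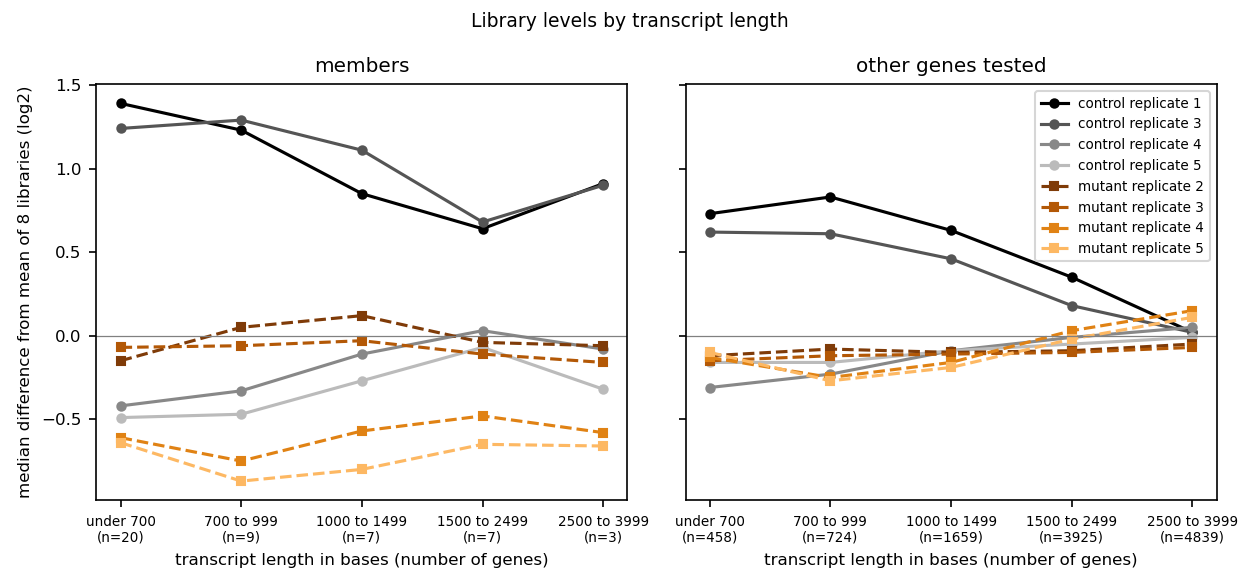
Median difference of log2 level from the mean of the 8 libraries, by transcript length, for members (left) and other genes tested (right), 1 line for each library; Atp5g1, the single member over 4000 bases and of uncertain length, is not drawn. Control replicates 1 and 3 are high at short lengths in both, at 1.39 and 1.24 in members and 0.73 and 0.62 in other genes under 700 bases.

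Several other mitochondrial lists had medians below 0 with all 8 libraries and closer to 0 without control replicates 1 and 3. Over all genes tested 3.17% were called lower and 3.98% higher, and without these controls 1.51% and 2.53%. Of the 37 nuclear subunits of complex I, 8 were called lower and 0 higher, with a median log2 fold change of -0.77, and without control replicates 1 and 3 the median was -0.03 with 0 called. Its called genes with the highest means were Ndufa8 at -0.80 (SE 0.35), Ndufa10 at -0.69 (SE 0.29), Ndufv2 at -0.97 (SE 0.38) and Ndufb5 at -1.03 (SE 0.44). In the citric acid cycle list 5 of 16 were lower, with a median of -0.56, and without these controls -0.19 with 0 called. Those with the highest means were Fh1, fumarate hydratase, at -0.77 (SE 0.31), Idh3a, Idh3b and Suclg1. Mitochondrial carriers and channels had 4 of 12 lower (Slc25a5, Vdac1, Mpc2 and Mpc1) with a median of -0.61, and without the 2 controls -0.19 with 0 called. Electron carriers had 1 of 13 lower, the ubiquinone hydroxylase Coq6 at -0.73 (SE 0.27), and a median of -0.30, and without them -0.05 with 0 called. Called higher were 0 genes of each of these lists.

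Among assembly factors, 2 of 6 for complex III were called lower, beside 3.17% of all genes tested. They were Ttc19 at -0.92 (SE 0.29) and Bcs1l, which inserts the Rieske protein, at -0.82 (SE 0.30). Without control replicates 1 and 3 these were at -0.52 and -0.43, and 0 of the 6 were called. The medians of the assembly lists were -0.51 for complex II (4 genes), -0.66 for complex III, -0.31 for complex IV (22 genes) and -0.62 for complex V with its inhibitor (5 genes), and 0 genes were called in the lists for complexes II, IV and V. With these controls left out the medians lay between -0.10 and 0.09. By contrast, the 15 regulators of mitochondrial biogenesis, which include Nrf1, Gabpa, Yy1 and Ppargc1a, had a median of -0.06, and the 14 genes for mitochondrial transport in neurites a median of 0.04, with 0 called in both; without control replicates 1 and 3 Trak2 (-0.91) and Kif5a (-0.78) of the transport list were called lower. Of the 13 entries on chromosome M, which carry no symbol and include ribosomal RNA and complex I genes, 6 were called lower and 0 higher. Without control replicates 1 and 3, 3 were called lower. The shares of all genes called lower were 3.17% and 1.51%. The 6 called entries overlap in position and are not separate loci. These are 68 to 957 with 332 to 623, 9203 to 9888 with 9459 to 9804, and 15356 to 16294 with 15763 to 16189. The entry spanning mt-Co1 (chromosome M, 5325 to 6941) had 1278885, 917975, 459158 and 1095992 in controls and 566769, 702011, 297181 and 324747 in mutants. Its log2 fold change was -0.99 (SE 0.50), not called, and -0.68 without control replicates 1 and 3. That of the entry from 11742 to 15288, which includes mt-Cytb of complex III, was -0.61 (SE 0.49), also not called, and 0.16 without them. Of the called entries, that from 9459 to 9804 had the lowest log2 fold change, -3.36 (SE 0.37, adjusted p = 0.00893 from limma), and -2.84 without them.

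Lists of interneuron markers, and of some other cells, also had median log2 fold changes below 0. For the calls in all cell lists, the shares over all genes tested were 3.17% lower and 3.98% higher. Without control replicates 1 and 3 these shares were 1.51% and 2.53%. Whether these lists followed the members across libraries was not tested. The members' median difference of log2 level was 1.19 and 1.14 in control replicates 1 and 3. Sums of normalized counts are a different measure and are not compared with it. Such sums, for the parvalbumin, somatostatin and MGE lists, were lower in control replicate 1 than in control replicate 3. Fewer cells or terminals of a type and less RNA in each cannot be told apart in these bulk samples. The parvalbumin list, which holds Cox6a2, had 6 lower and 0 higher of 11 tested, median -1.10, and its summed normalized counts were 104792, 172109.6, 80573 and 41743 in controls and 59001, 59876, 28729 and 24882 in mutants. Cplx1 had the highest mean, and the called genes with the highest means were Cplx1 at -1.19 (SE 0.46), Kcnc1 at -1.02 (SE 0.36), Nefh at -0.84 (SE 0.21) and Syt2 at -1.10 (SE 0.45). The calls of Cplx1 and Syt2 were lost, at the same log2 fold changes, with limma without trend. They were also lost without control replicate 3 or mutant replicate 4 or 5, each left out alone. The other called genes were Pvalb at -2.08 (SE 0.78) and Kcnab3 at -1.19 (SE 0.43). The somatostatin list had 1 lower and 0 higher of 11 tested, median -1.19, and its sums were 364364, 643974, 228104 and 96308 in controls and 266726, 269872, 75347 and 34488 in mutants, with Sst the gene of the highest mean and Chodl at -1.32 (SE 0.56) called. The MGE list had 2 lower and 0 higher of 13 tested, median -0.69, with Gad2 at -0.93 (SE 0.41) and Gad1 at -1.04 (SE 0.47). Both calls were lost, at the same log2 fold changes, with a pseudocount of 0.1 and with limma without trend. They were also lost without control replicate 1, 3 or 4 or mutant replicate 4 or 5, each left out alone. The sums of the MGE list were 78664, 131721, 69639 and 38378 in controls and 61264, 64764, 27339.6 and 21351 in mutants, led by Nxph1. In all 3 lists control replicate 3 was highest and mutant replicates 4 and 5 lowest, whereas control replicate 5 was low. Without control replicates 1 and 3 their medians were -0.57, -0.38 and -0.37, below the -0.03 of the members. Then Nefh (-0.77) of the parvalbumin list, Nos1 (-0.66) of the somatostatin list and 0 genes of the MGE list were called lower. The calls of Cplx1 (-0.50), Kcnc1 (-0.57), Syt2 (-0.91, SE 0.56), Pvalb (-1.09), Kcnab3 (-0.85), Chodl (-0.65), Gad1 (-0.40) and Gad2 (-0.53) were lost. All genes of these 3 lists were tested, and none was at 0 in every library.

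The oligodendrocyte list had 2 lower and 0 higher of 10 tested, median -0.59, led by Mbp, and its sums were 673327, 362556, 230283 and 324973 in controls and 232882, 202986, 253880.3 and 287532 in mutants. The library labelled control replicate 1 was highest, with Mag at -0.66 (SE 0.25) and Mog at -0.73 (SE 0.31) the called genes. Mural cell markers had 0 lower and 3 higher of 10 tested, median 0.46, with Vtn most abundant and sums of 42905, 58289, 50742 and 56255 in controls and 76795, 67709, 68665 and 63886 in mutants. Here control replicate 1 was lowest, and the called genes were Pdgfrb at 1.02 (SE 0.41), Abcc9 at 1.25 (SE 0.42) and Myh11 at 0.93 (SE 0.40). Of the mural genes only Abcc9 (0.87), and of the endothelial genes only Tek (0.61), were called without control replicates 1 and 3. The calls of Mag (-0.25), Mog (-0.18) and the CGE-list gene Crh (-0.56) were then lost, and Prox1 (-1.09) of the CGE list was called lower. Endothelial markers had 0 lower and 3 higher of 10 tested, median 0.24, with Cldn5 most abundant and sums of 213469, 335511, 245625 and 194860.1 in controls and 309198, 297396, 303414 and 295420.2 in mutants. The called genes were Flt1 at 0.69 (SE 0.25), Kdr at 0.72 (SE 0.28) and Tek at 0.85 (SE 0.25). Markers of CGE-derived interneurons had 1 lower and 0 higher of 10 tested, median -0.60, with sums of 45842, 46537, 23605 and 21858 in controls and 24071, 24545, 20160.4 and 20969 in mutants, led by Cck, and Crh at -1.12 (SE 0.48) was called. The call of Crh was lost with limma without trend (-1.12) and in edgeR (-1.07). It was also lost without control replicate 1, 3 or 4 or mutant replicate 4 or 5, each left out alone (-1.14 to -0.78). Microglia had 0 lower and 0 higher of 10 tested, median -0.44, with sums of 53208, 45661, 26619.5 and 31643 in controls and 29769, 33069.8, 27696 and 29663 in mutants, led by Csf1r. Both lists were highest in control replicates 1 and 3.

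The other cell lists were excitatory neurons (12 tested, median -0.15), astrocytes (0 lower and 0 higher of 10 tested, median -0.11), oligodendrocyte precursors (0 lower and 0 higher of 10 tested, median -0.17) and skeletal and heart muscle (0 lower and 0 higher of 8 tested, median 0.15). The muscle list, which bears on the muscle isoforms Cox6a2 and Cox7a1, was led by Des. None of the genes in any cell list was at 0 in every library. The medians of the excitatory, astrocyte and muscle lists turned, to 0.05 with quantile normalization, 0.05 with library weights and -0.33 with quantile normalization. The part of these cell types in the members' levels was not tested.

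**Figure D5:**
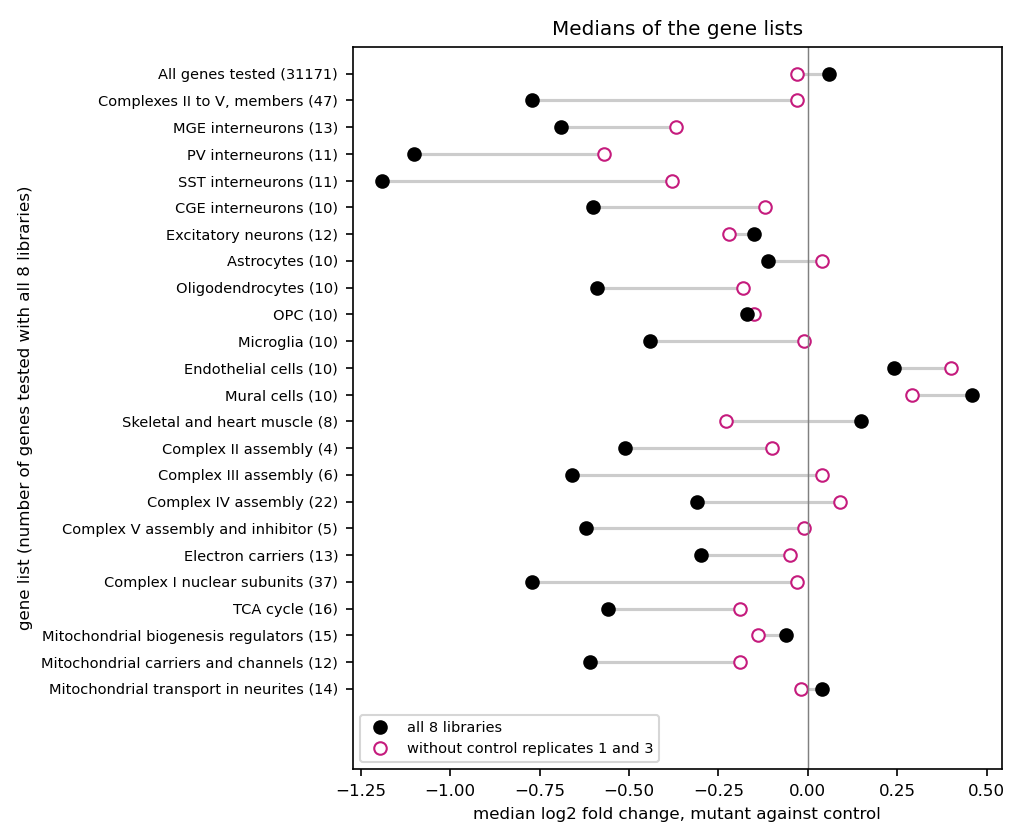
Median log2 fold change of each gene list, of the members and of all genes tested, with all 8 libraries (filled) and without control replicates 1 and 3 (open); the number of genes tested with all 8 libraries is in brackets. The members and the complex I list both move from -0.77 to -0.03, and the parvalbumin list from -1.10 to -0.57.

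Copies and neighbours limit single members. Of the 49 members, 23 have an annotated pseudogene or other gene that matches their coding sequence at 90% identity or more over at least 50% of its length, including 6 of the 9 called members (Cox7c, Atp5g1, Atp5md, Atp5o, Atp5c1 and Atp5pb), so the levels of these genes are uncertain. In 14 members an exon overlaps an exon of another gene, such as Uqcrc2 with Pdzd9 and Atp5j with Gabpa, and the library kit does not mark the strand. In the 18 tested members with neither, 2 were called lower (Cyc1 and Uqcrfs1), beside 3.17% of all genes tested. Their median log2 fold change was -0.67, and -0.07 without control replicates 1 and 3.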

How the data were processed

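Ribosome-associated RNA from cortical synaptosomes was measured in 4 control and 4 mutant libraries, grouped by their labels. The unit is a signal: normalized counts deposited by the authors, who aligned reads to mm10 (STAR 2.4.0 in the submitters' processing notes), counted them on constitutive regions of Fast DB genes and divided by DESeq2 size factors. Dividing each library by its smallest value above 0 gave reads, and 100% of values were whole within 0.05 reads. In control replicate 4 and mutant replicate 5 a read is worth so close to 1 that this shows less. Genes averaging 10 or more in either genotype (31171) entered limma 3.58.1 (R 4.3.3, eBayes with trend) on log2(normalized count + 1), which understates changes of low genes, with Benjamini-Hochberg adjustment over all. A call needed unadjusted p of 0.05 or less and a change of 1.5 times or more. On the recovered reads, edgeR 4.0.16 (quasi-likelihood test with TMM) gave 10 lower and 0 higher genes below an adjusted p of 0.05, and DESeq2 1.42.0 gave 36 and 32. Permutation tests used scipy 1.17.1. Alternatives were pseudocounts of 0.1 and 10, other filters, scalings and weights, a replicate block and each library left out.

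Copies were sought with blastn 2.17.0 from the coding sequence of each principal GENCODE M21 transcript. This was the third search made: the longest transcripts of any type, and then whole coding transcripts, were tried first and missed known pseudogenes of Cox7c.

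The members and lists were chosen with earlier results of these data known. Genes named were Erbb4; per complex the highest mean and, above a mean of 100, the lowest and highest log2 fold change; called members; isoform pairs; c subunit and Sdh genes; and up to 4 called genes per list, by mean. Uqcrh, Cox7c-ps1, Cox7b2, the members given by ranges, the chromosome M entries and Pvalb, Kcnab3, Nos1, Prox1, Trak2 and Kif5a were added to these after their values were seen. The lists cover 12 cell types and 11 mitochondrial gene sets. The calls of the excitatory neuron list are not reported here. Sco2, Cox16, Pet117 and the mitochondrially encoded subunits were not matched by symbol. Protein sequences were not used here.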

Additional observations from a re-analysis of the deposited data

Results flagged for a closer look

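Among 68 sets of 4 libraries of 1 genotype, 3 had a library farther from its neighbour, relative to the whole range, than the 95% critical value of Dixon's test, which chance exceeds in about 1 of 20 sets. Cox4i2 reached 252 in mutant replicate 4, whereas the remaining mutants had 157 to 173. Cox8b was at 10.3 in control replicate 3 and at 2.05 in mutant replicate 4, and was listed at 0 in the other libraries. With 3 libraries at 0 any value passes, so these 2 sets are not to be read against the chance rate. Control replicates 1 and 3 lie close to each other in most members, and a rule on single libraries does not find such a pair.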

How the results depend on the processing

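The members' median log2 fold change was below 0 under every alternative. With all 8 libraries it ran from -0.93 (DESeq2) to -0.53 (library weights), with each library left out in turn from -1.05 to -0.49, and without control replicates 1 and 3, an alternative chosen after seeing the data for the high member levels of these 2 libraries, it was -0.03. This fall follows from the choice, since the higher mutants were kept, and does not measure dependence on processing. Under all of these 0 members were called higher and 0 reached an adjusted p below 0.05. The number called lower was 8 to 12 with other pseudocounts, filters, scalings or library weights (2.5% to 5.24% of all genes), 3 with limma without trend (2.31%), 25 with edgeR (3.87%) and 33 with DESeq2 (5.05%). It ranged from 1 to 37 with each library left out (1.65% to 6.35% of all genes) and was 0 without control replicates 1 and 3, when the medians of complexes II, III, IV and V were -0.13, 0.00, 0.11 and -0.09. The cause was not tested. Of the 9 called members, 9 were also called by edgeR and by DESeq2, 3 by limma without trend, 3 without control replicate 1, 2 without control replicate 3, 4 without mutant replicate 4 and 1 without mutant replicate 5.

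The replicate numbers were not taken as pairs, since same-numbered libraries correlated at 0.10, 0.10 and 0.08 in their deviations. Some differently numbered libraries were as close. Control replicate 3 was at 0.08 with mutant replicate 2, and at -0.12 and -0.11 with mutant replicates 4 and 5. Control replicate 4 with mutant replicate 5, and control replicate 5 with mutant replicate 4, were at 0.08. With mutant replicates 2 and 3 these controls were between -0.08 and -0.06. Control replicate 1 was between -0.04 and 0.03 with all mutants. What these signs reflect was not tested. With the replicate block, in which control replicate 1 and mutant replicate 2 have no partner and add nothing to the contrast, 19 members were called lower (5.51% of all genes), Atp5l was at 0.06 and Cox6b2 at 0.04.

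Signs turned in genes that were not called. Atp5l was at 0.02 with library weights. Cox7a1 was at 0.00 with a pseudocount of 10, -0.06 with quantile normalization, -0.31 with edgeR and -0.33 with DESeq2. With each library left out it ran from -0.28 to 0.71, and Cox6b2 from -0.40 to 0.10. Without control replicates 1 and 3, Atp5g2 (0.06), Atp5g3 (0.07), Atp5l (0.07), Cox6a1 (0.16), Cox6b1 (0.14), Cox7a2 (0.11) and Cox8a (0.10) were above 0. Counting error and the spread between libraries were not compared gene by gene; 4 of the tested members had a mean under 100.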
